A study of Homo sapiens with 6 samples.

Results

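The genes described here carry glucose into the cell, break it down to pyruvate and lactate, store it as glycogen or divert it to pentose phosphates. They were chosen as a list of 38 gene symbols covering these steps, and 36 had a probe set on the array that was annotated to that gene alone, out of 18417 such genes in all. The monocarboxylate carriers SLC16A1 and SLC16A3 were not analysed here. The samples came from WM164, a human melanoma line carrying mutant BRAF, a kinase of the ERK pathway. The 3 parent samples were without inhibitor, and the series title gives DMSO, the drug's solvent, as their exposure. The 3 colony samples, which the labels call IDTC colonies and describe as resistant, were kept for 60 days in 500 nM PLX4032 (vemurafenib), an inhibitor of mutant BRAF. Both groups grew in serum-supplemented RPMI medium, and the labels do not say whether a colony is a single clone. Both groups are of 1 cell line, and the design text does not say whether the triplicates were separate cultures, so p-values reflect the spread among these 6 samples alone, and that spread may be technical.

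Glycolysis splits glucose into pyruvate in the cytosol and yields ATP without oxygen, and many tumour cells run it fast even where oxygen is present. Pyruvate is either reduced to lactate and exported, or oxidised in mitochondria by pyruvate dehydrogenase, which the PDK kinases switch off by phosphorylation. In melanoma, signalling through mutant BRAF is known to favour glycolysis, and many of these genes are also classical targets of the hypoxia-inducible factors.

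The values are log2 expression values as deposited, so a difference of 1 is a 2-fold change, and levels of different genes are not compared because each probe set binds with its own strength. The 6 arrays were alike, with array medians from 6.25 to 6.34 and correlations across genes of 0.997 to 0.998 within groups and 0.967 to 0.969 between them. Melanocyte lineage markers were present in both groups, with a mean over 8 measured markers of 9.98 to 10.01 on the parent arrays and 9.78 to 9.85 on the colony arrays. Of these 8, 3 rose and 3 fell, with MLANA at -1.45, S100A1 at -0.85 and TYRP1 at -0.23 against S100B at 0.57, SOX10 at 0.42 and PMEL at 0.33. TYRP1 alone lay below the array medians in both groups. Below the array medians in both groups were 3 of 7 measured markers for fibroblasts, 4 of 6 for keratinocytes, 5 of 6 for endothelium and 4 of 6 for leukocytes. The leukocyte markers CD68 and LYZ fell in colonies, and the mean over the leukocyte list was 6.40 to 6.44 on parent and 5.81 to 5.84 on colony arrays, while PTPRC was at 3.67 and 3.71. Their part in the results below was not tested.

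Colonies differed from parent cells at 28 of the 36 genes, with 21 lower and 7 higher (limma, Benjamini-Hochberg adjusted p under 0.05). Such calls were common on these arrays, where 43.8% of all genes passed, 22.9% as lower and 20.9% as higher in colonies. Among the genes above the median expression, where 34 of the 36 lie, 36.8% were lower and 31.2% higher. The members' shares were 58.3% lower and 19.4% higher. Their median log2 difference was -0.26, against 0.00 over all genes and -0.03 over genes above the median expression. Of the 36 genes, 5 fell and 4 rose by at least 2-fold. Falls of that size were found in 2.76% of all genes and 4% of those above the median expression, and rises in 2.65% and 3.86%. The 3 values of each group did not overlap for 31 of the 36, as for 50.8% of all genes and 76.2% of those above the median expression.

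**Figure D1:**
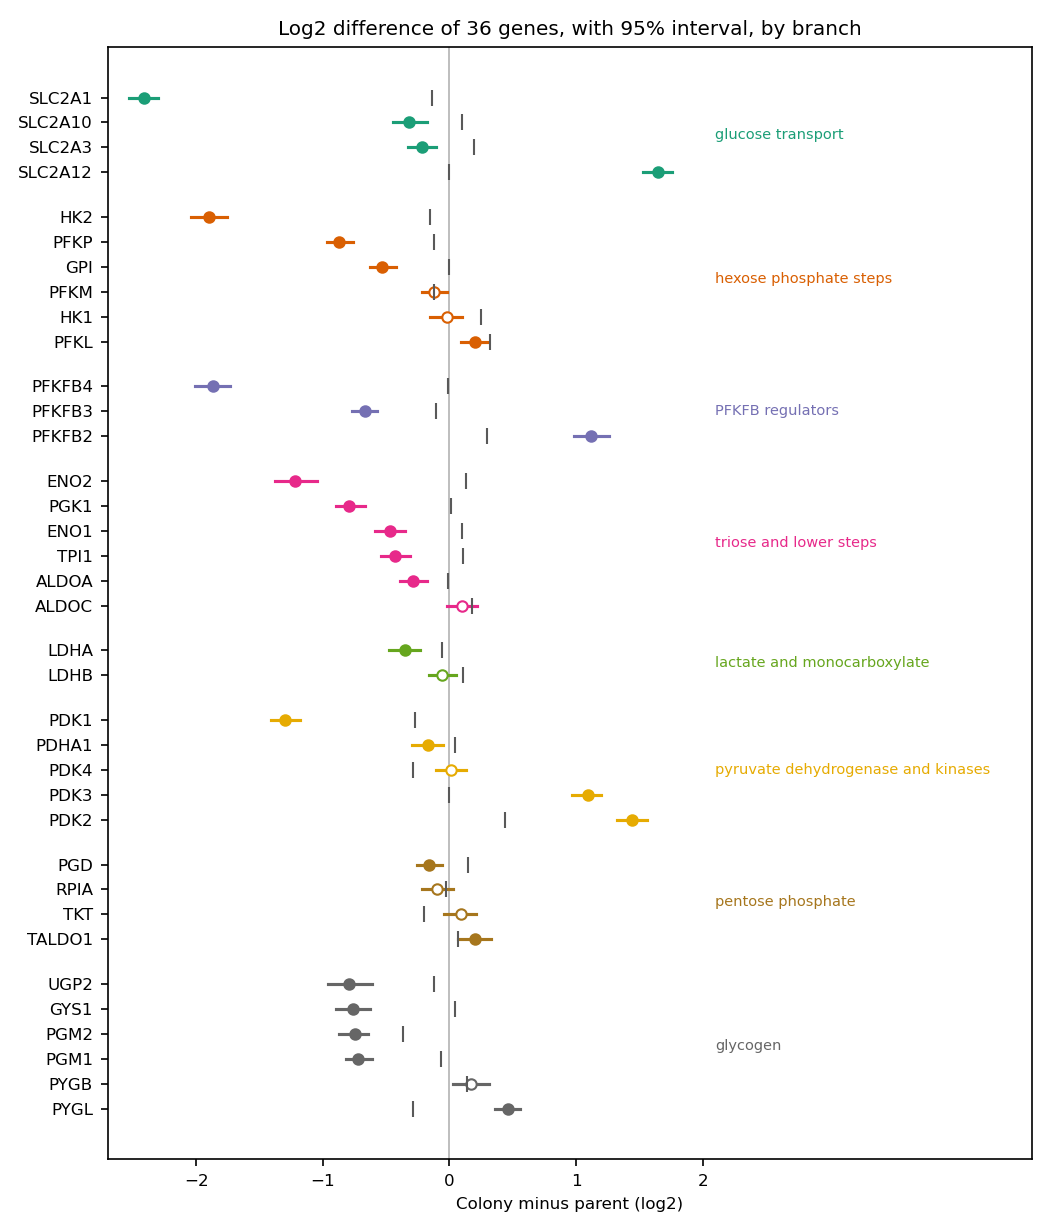
Colony-minus-parent log2 difference of each of the 36 genes (points) with its 95% interval (bars), ordered within branches. Filled points passed limma at an adjusted p under 0.05 and open points did not. Grey ticks mark the median difference of up to 50 neighbouring expressed genes along the chromosome. The falls of SLC2A1 (-2.41), HK2 (-1.90), PFKFB4 (-1.87), PDK1 (-1.30) and ENO2 (-1.22) and the rises of SLC2A12 (1.65), PDK2 (1.44), PFKFB2 (1.12) and PDK3 (1.09) stand well outside the neighbourhood ticks.

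The core letters of the hypoxia response element were in a promoter window of all 20 members that fell and had a window. They were also there for 75.3% of all genes above the median expression that fell, and for 72.1% of such genes whatever their change. Promoter windows of 5 genes with a change of at least 2-fold are shown, and every window shown holds a match. The first 3 are of genes that fell, and PDK2 and PDK3 are of genes that rose. Each sequence is the 250 bases before a RefSeq transcript start (GRCh38.p14), 5′ to 3′ in the direction of transcription, in lower case with every match to ACGTG or GCGTG on either strand in capitals. For HK2 the first of its 2 windows along the chromosome is given, for PDK1 the second of 2 and for PDK2 the second of 3. The other PDK1 and PDK2 windows, and those of SLC2A1 and SLC2A12, hold no match in the 250 bases before the start.
HK2 (chr2:74833877-74834126, plus strand): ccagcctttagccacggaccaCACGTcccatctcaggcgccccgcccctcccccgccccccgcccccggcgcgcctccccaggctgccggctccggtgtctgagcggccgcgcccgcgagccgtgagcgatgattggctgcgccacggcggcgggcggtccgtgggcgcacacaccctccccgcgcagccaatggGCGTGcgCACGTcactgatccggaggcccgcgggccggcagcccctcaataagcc
PFKFB4 (chr3:48556804-48557053, minus strand): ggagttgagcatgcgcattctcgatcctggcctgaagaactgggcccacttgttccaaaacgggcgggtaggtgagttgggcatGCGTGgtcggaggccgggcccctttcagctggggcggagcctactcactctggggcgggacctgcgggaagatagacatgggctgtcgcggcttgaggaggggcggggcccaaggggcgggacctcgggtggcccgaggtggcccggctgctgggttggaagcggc
PDK1 (chr2:172555840-172556089, plus strand): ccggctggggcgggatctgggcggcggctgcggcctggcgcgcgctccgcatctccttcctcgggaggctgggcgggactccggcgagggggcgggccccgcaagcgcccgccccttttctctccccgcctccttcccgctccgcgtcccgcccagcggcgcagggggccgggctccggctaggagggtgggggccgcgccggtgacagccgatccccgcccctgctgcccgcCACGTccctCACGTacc
PDK2 (chr17:50095101-50095350, plus strand): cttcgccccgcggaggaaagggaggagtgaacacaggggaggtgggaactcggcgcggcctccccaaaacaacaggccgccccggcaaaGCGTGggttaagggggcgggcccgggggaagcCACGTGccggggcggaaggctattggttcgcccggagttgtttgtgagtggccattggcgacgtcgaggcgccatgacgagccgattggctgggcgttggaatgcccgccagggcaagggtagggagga
PDK3 (chrX:24465036-24465285, plus strand): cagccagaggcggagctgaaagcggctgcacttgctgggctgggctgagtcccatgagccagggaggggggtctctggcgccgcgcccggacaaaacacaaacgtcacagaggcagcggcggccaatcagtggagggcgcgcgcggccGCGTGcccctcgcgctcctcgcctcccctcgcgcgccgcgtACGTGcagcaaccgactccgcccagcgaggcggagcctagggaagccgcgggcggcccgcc

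A window of 300 bases, 250 before and 50 after the start, was searched on both strands for ACGTG and GCGTG, and for the E-box CACGTG, each copy of which also counts as ACGTG. RefSeq windows were found for 34 of the 36 genes, and SLC2A3 and PFKFB2 had none. Matches to ACGTG or GCGTG were present in 27 of the 33 windows (81.8%) of genes that fell, in 3 of the 8 windows (37.5%) of genes that rose and in 8 of the 20 windows (40.0%) of genes that did not pass the test. The same letters stood in 48.4% of all 35116 windows and in 55.1% of the 20109 windows of tested genes. They are more frequent in GC-rich sequence, at 67.6% of the tested genes' windows with at least 65% GC, and the windows of genes that fell had a median GC content of 70.0% against 62.7% for tested genes. HK1 and PFKM supply 7 windows each to the 20 of members that did not pass the test. Counted per gene, a match in at least 1 window was present for 20 of 20 members that fell, 3 of 6 that rose and 6 of 8 that did not pass. Among genes above the median expression with a window it was 72.1% of all 7548, 75.3% of those that fell and 69.6% of those that rose. In SLC2A1 the only match, GCGTG, lay in the 50 bases after the start. ACGTG alone was in 54.5% of the windows of members that fell and in 23.2% of those of tested genes. The E-box was in 15.2% (5 of 33) and 8.32%. In tested genes' windows with at least 65% GC, the shares were 24.9% for ACGTG and 10.4% for the E-box. These are letter counts over windows that overlap within a gene, with no test, and they say nothing of which factor was bound.

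Of the 4 glucose transporter members, 3 fell and only SLC2A12 rose. Among genes above the median expression, where 3 of the 4 lie, 36.8% fell and 31.2% rose. SLC2A1, which encodes GLUT1, the main basal glucose transporter of many cell types, was at 12.17, 12.17 and 12.18 on the parent arrays and at 9.73, 9.72 and 9.85 on the colony arrays. Its groups lay far apart, and the fall of 5.33-fold was the largest of any member (-2.41 ± 0.05, log2 difference ± SE; limma adjusted p = 1.33e-07). SLC2A3 encodes the high-affinity transporter GLUT3, and read 10.93, 11.04 and 10.94 in parent cells and 10.75, 10.76 and 10.75 in colonies. That fall was small (-0.22 ± 0.05; limma adjusted p = 0.00622), though the groups did not overlap, and was -0.41 with the neighbourhood median of 0.19 subtracted, that is, the median difference of the 50 nearest expressed genes on its chromosome. Whether its probe set also reads the near-identical paralog SLC2A14 was not tested. SLC2A10 (GLUT10) fell by 0.32 ± 0.06 on the log2 scale. SLC2A12, which encodes GLUT12, was the member with the largest rise, from 5.80, 5.66 and 5.77 to 7.39, 7.38 and 7.39 (1.65 ± 0.05; limma adjusted p = 4.65e-07). On the parent arrays it read below every array median, and its signal over background was not tested. SLC2A1 and SLC2A3 changed unequally, with a difference of SLC2A1 minus SLC2A3 of -2.19 on the log2 scale (95% interval -2.33 to -2.05; limma adjusted p = 2.35e-07).

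The steps that trap and rearrange glucose 6-phosphate were divided by isoform. HK2, the inducible hexokinase bound to mitochondria, was at 11.02, 11.09 and 11.13 in parent cells and at 9.17, 9.10 and 9.27 in colonies, a 3.74-fold fall (-1.90 ± 0.06; limma adjusted p = 4.75e-07). HK1, the hexokinase of most tissues, read 8.89, 8.90 and 9.00 against 8.85, 8.95 and 8.93. These HK1 groups overlapped, and the difference was -0.02 (95% interval -0.15 to 0.10). With its neighbourhood median of 0.25 on chromosome 10 subtracted, HK1 was at -0.28 and called (limma adjusted p = 0.0034). The 2 hexokinases differed in their change by 1.88 (95% interval of HK1 minus HK2 1.73 to 2.02; limma adjusted p = 5.58e-07). GPI, which interconverts glucose and fructose 6-phosphate, fell from 12.12, 12.15 and 12.15 to 11.59, 11.58 and 11.66 (-0.53 ± 0.04).

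Phosphofructokinase commits the sugar to glycolysis and is built from 3 subunit types. The platelet-type subunit gene PFKP fell from 10.59, 10.59 and 10.67 to 9.76, 9.73 and 9.76 (-0.87 ± 0.04; limma adjusted p = 4.4e-06). The muscle-type gene PFKM was at 9.51, 9.48 and 9.56 and then 9.42, 9.37 and 9.40, and missed the threshold (-0.12, 95% interval -0.22 to -0.02; limma adjusted p = 0.0618). PFKM passed with only genes above the median expression (limma adjusted p = 0.0281) and with trend and robust settings (0.0294), and stood at 0.00 with its neighbourhood median of -0.12 subtracted. The liver-type gene PFKL was slightly higher in colonies, at 8.97, 8.97 and 8.99 against 8.73, 8.79 and 8.83 (0.20 ± 0.05; limma adjusted p = 0.00899). PFKL lies on chromosome 21 among genes whose median difference was 0.32, and with that neighbourhood median taken off it turned to -0.12 and was no longer called (limma adjusted p = 0.0736). In the same setting the difference of PFKL minus PFKM, 0.32 in the main fit, turned to -0.12 (limma adjusted p = 0.0761). Both PFKL and PFKM changed unequally from PFKP, by 1.06 (0.97 to 1.16) and 0.75 (0.65 to 0.84). With the neighbourhood medians subtracted, PFKL minus PFKP was 0.63 and still called (limma adjusted p = 1.7e-05).

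PFKFB enzymes make and remove fructose 2,6-bisphosphate, the strongest activator of phosphofructokinase. PFKFB4, whose transcript is inducible by low oxygen, fell from 8.61, 8.53 and 8.73 to 6.73, 6.75 and 6.79 (-1.87 ± 0.06; limma adjusted p = 5.58e-07). PFKFB3, the isoform with the highest kinase activity relative to its phosphatase activity, fell from 9.84, 9.79 and 9.81 to 9.17, 9.10 and 9.16 (-0.67 ± 0.04). PFKFB2, known from heart and regulated by phosphorylation, went the other way, from 6.96, 6.77 and 6.91 to 7.96, 7.99 and 8.05 (1.12 ± 0.06; limma adjusted p = 5.73e-06). No values of the 2 groups overlapped for any of the 3 genes. The PFKFB2 and PFKFB4 changes differed by 2.99 (95% interval 2.86 to 3.11; limma adjusted p = 9.67e-08), the widest gap of the 19 paralog pairs compared.

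**Figure D2:**
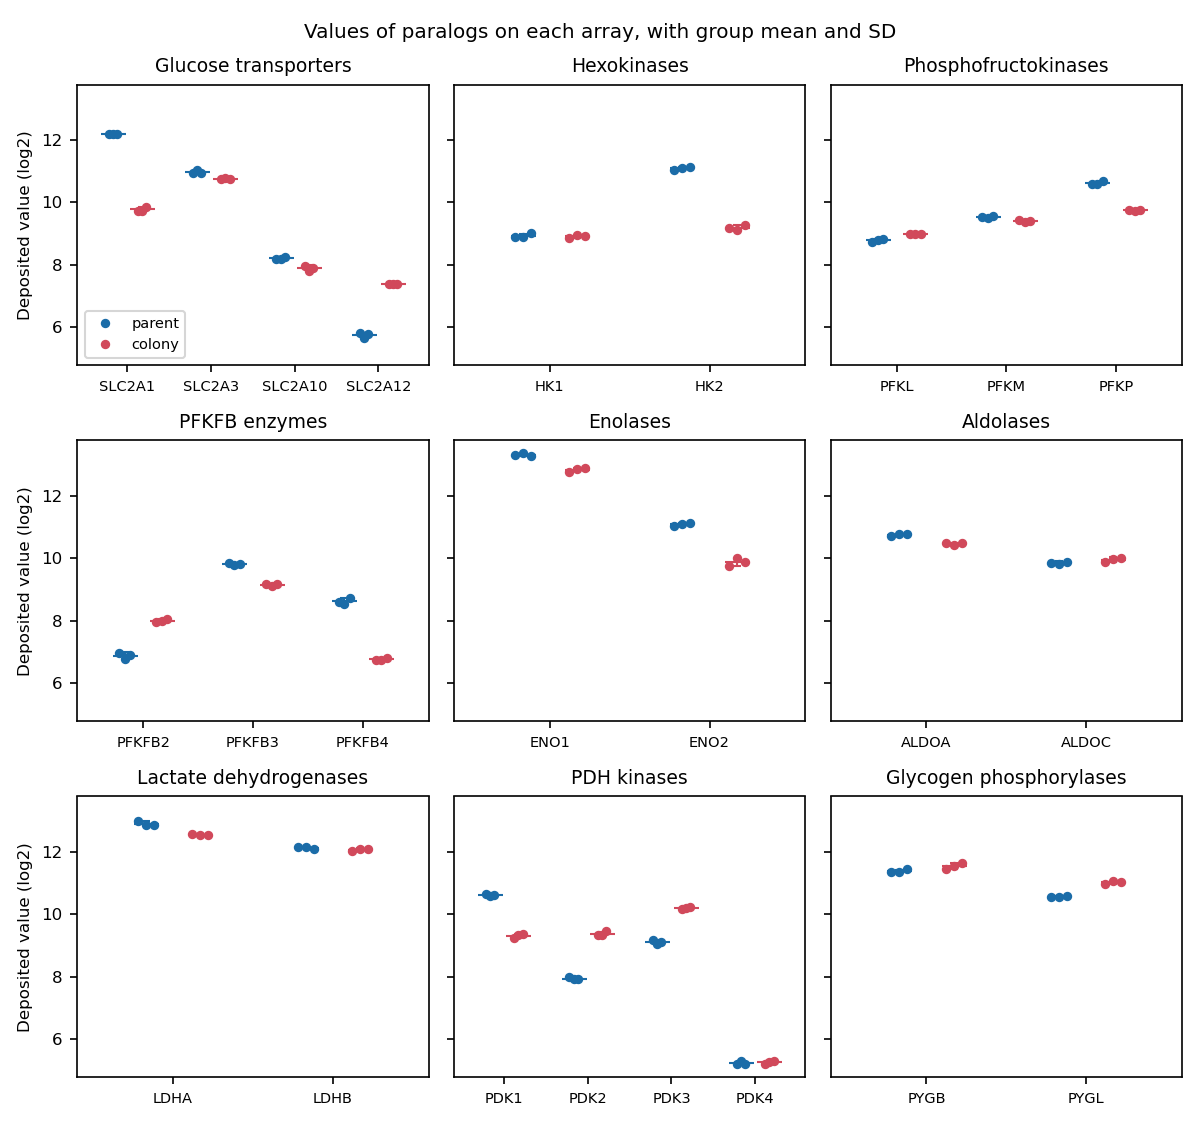
Deposited log2 values of paralogs on the 3 parent (blue) and 3 colony (red) arrays, with the group mean (dash) and SD (bar); only the 2 groups of the same gene are comparable, not the heights of different genes. Within single families SLC2A12, PFKFB2, PDK2 and PDK3 lie higher in colonies while SLC2A1, PFKFB4 and PDK1 lie lower, and the HK1, ALDOC, LDHB and PDK4 groups overlap.

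Of the 6 members acting between fructose 1,6-bisphosphate and phosphoenolpyruvate, 5 fell, with a branch median of -0.45. Among all genes above the median expression 36.8% fell. These members leave out the dehydrogenase and mutase steps of this stretch. There GAPDH (-0.11) and PGAM2 (0.03) did not pass, GAPDHS rose (0.73) and PGAM1 was not analysed here. ENO2, the neuron-type enolase also used as a neuroendocrine marker, fell most, from 11.04, 11.10 and 11.13 to 9.74, 10 and 9.89 (-1.22 ± 0.07; limma adjusted p = 8.03e-06). The ubiquitous enolase gene ENO1 fell less, from 13.30, 13.36 and 13.27 to 12.77, 12.86 and 12.89 (-0.47 ± 0.05). The changes of the enolases differed by 0.74 (95% interval of ENO1 minus ENO2 0.60 to 0.89). ENO1 sat close to the highest value in the table, 13.94.

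PGK1, which makes the first ATP of the pathway, fell from 12.61, 12.53 and 12.48 to 11.73, 11.76 and 11.76 (-0.79 ± 0.05; limma adjusted p = 1.15e-05). The triose isomerase gene TPI1 fell by 0.43 ± 0.05, and its second probe set gave -0.48. ALDOA, the main aldolase of muscle and of most cultured cells, fell by 0.29 ± 0.04, from 10.70, 10.76 and 10.78 to 10.48, 10.43 and 10.48. ALDOC, the brain-type aldolase, read 9.86, 9.82 and 9.89 against 9.88, 9.97 and 10.01 with overlapping groups (0.10, 95% interval -0.02 to 0.22; limma adjusted p = 0.181). ALDOC passed after quantile normalization (0.17, limma adjusted p = 0.0294) and stood at -0.08 with its neighbourhood median of 0.18 subtracted. The pair ALDOA minus ALDOC differed in its change by -0.39 (-0.52 to -0.26; limma adjusted p = 0.000819), and by -0.20 with the neighbourhood medians subtracted (limma adjusted p = 0.0238).

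At the pyruvate end, LDHA, whose subunit favours lactate formation, fell from 12.99, 12.86 and 12.85 to 12.56, 12.55 and 12.54 (-0.35 ± 0.05; limma adjusted p = 0.000903). LDHB, the heart-type subunit, was at 12.14, 12.14 and 12.10 against 12.01, 12.10 and 12.10, with overlapping groups and a difference of -0.06 (95% interval -0.16 to 0.05). The change of LDHA minus LDHB was -0.30 (-0.43 to -0.17; limma adjusted p = 0.00308). With the neighbourhood medians of -0.06 and 0.11 subtracted it was -0.13 and not called (limma adjusted p = 0.102), and LDHB itself was at -0.17 and called (limma adjusted p = 0.0208).

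Among the PDK kinases 1 isoform fell, 2 rose and 1 did not pass the test. Of all genes above the median expression, 36.8% fell and 31.2% rose. PDK1, an isoform known to be induced by hypoxia-inducible factor, fell from 10.65, 10.58 and 10.62 to 9.25, 9.33 and 9.37 (-1.30 ± 0.05; limma adjusted p = 1.06e-06). PDK2, the most widely expressed isoform, rose from 7.98, 7.92 and 7.91 to 9.34, 9.34 and 9.45 (1.44 ± 0.05; limma adjusted p = 7.8e-07). PDK3 rose from 9.18, 9.05 and 9.11 to 10.18, 10.20 and 10.23 (1.09 ± 0.05; limma adjusted p = 2.52e-06). All 3 genes had groups that did not overlap. PDK4, which fasting and fatty acids induce in muscle, lay below the array medians on all 6 arrays, and its difference was 0.01 (-0.11 to 0.13), so the pairs with PDK4 restate the changes of the other kinases.

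PDK1 minus PDK2 shifted by -2.73 (95% interval -2.84 to -2.63; limma adjusted p = 6.01e-08) and PDK1 minus PDK3 by -2.39 (-2.49 to -2.28). PDK2 lies on chromosome 17 among genes with a median of 0.44, and its rise was 1.0 once that was subtracted, while PDK3 remained at 1.09. The difference PDK2 minus PDK3, 0.35 in the main fit, then turned to -0.10 and was not called (limma adjusted p = 0.135). PDHA1, the catalytic subunit that these kinases phosphorylate, was at 9.01, 8.90 and 9.00 and then 8.75, 8.79 and 8.85 (-0.17 ± 0.05; limma adjusted p = 0.029). The PDHA1 call was lost when parent replicate 1, parent replicate 3, colony replicate 1 or colony replicate 2 was left out (limma adjusted p from 0.0633 to 0.0989).

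**Figure D3:**
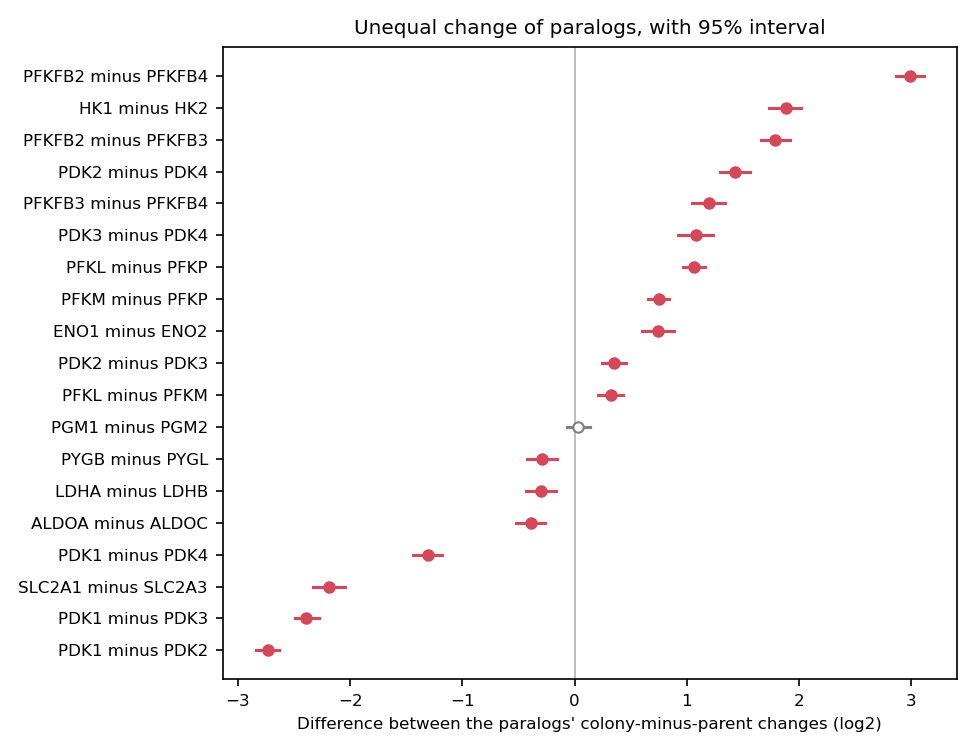
Difference between the colony-minus-parent log2 changes of 19 paralog pairs (points) with 95% intervals (bars); red points passed limma at an adjusted p under 0.05 and the grey open point did not. PFKFB2 minus PFKFB4 (2.99) and PDK1 minus PDK2 (-2.73) lie at the ends, and PGM1 minus PGM2 (0.03) spans 0.

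Over the 19 pairs, 18 changed unequally by limma with adjustment over all genes and pairs together. Several pairs share a gene, so they are not independent. Single genes above the median expression were called at 68%, and pairs of unrelated genes were not compared. Whether unequal change is particular to paralogs was therefore not tested. An exact 2-sided permutation test over 3 against 3 arrays cannot go below p = 0.10, and it gave that smallest value for the 18 pairs called.

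The pentose phosphate branch, which supplies NADPH and ribose, moved little, with a median of 0.00. PGD, the second dehydrogenase of the oxidative arm, read 12.03, 12.05 and 12.08 in parent cells and 11.87, 11.89 and 11.93 in colonies (-0.16 ± 0.04; limma adjusted p = 0.0203). In the non-oxidative arm, the transaldolase gene TALDO1 read 10.70, 10.56 and 10.57 and then 10.80, 10.77 and 10.85 (0.20 ± 0.05; limma adjusted p = 0.0215). Both differences were under 1.5-fold. The PGD call was lost without parent replicate 3, colony replicate 1 or colony replicate 2 (limma adjusted p from 0.0563 to 0.0682) and after quantile normalization (-0.11, limma adjusted p = 0.0756), while PGD stood at -0.31 with its neighbourhood median of 0.15 subtracted. That of TALDO1 was lost without parent replicate 2, parent replicate 3, colony replicate 1 or colony replicate 3 (0.0606 to 0.0729), with arrays at a common median (0.084) and with the neighbourhood median subtracted (0.105).

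The transketolase gene TKT (0.09, 95% interval -0.04 to 0.21) and the ribose 5-phosphate isomerase gene RPIA (-0.10, -0.22 to 0.03) did not pass. TKT lies on chromosome 3 among genes with a median of -0.20, and it was called at 0.29 once that was subtracted (limma adjusted p = 0.00288). It was also called after quantile normalization (0.15, limma adjusted p = 0.0475).

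Of the 6 glycogen members, 4 fell, 1 rose and 1 did not pass the test. Among all genes above the median expression, where all 6 lie, 36.8% fell and 31.2% rose. PGM1 (-0.72), UGP2 (-0.79) and GYS1 (-0.76), which act between glucose 6-phosphate and glycogen, were among the 4 members that fell. PGM1, which moves phosphate between positions of glucose, went from 11.48, 11.42 and 11.45 to 10.72, 10.69 and 10.77. UGP2 makes UDP-glucose, the activated sugar, and fell from 9.43, 9.29 and 9.38 to 8.43, 8.66 and 8.66. GYS1, the glycogen synthase of muscle and most other tissues, fell from 9.42, 9.34 and 9.45 to 8.63, 8.73 and 8.57. The limma adjusted p was 1.07e-05 for PGM1, 9.05e-05 for UGP2 and 2.66e-05 for GYS1.

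PGM2, which acts chiefly on pentose phosphates, fell by 0.75 ± 0.05 and did not differ detectably from PGM1 (PGM1 minus PGM2 0.03, 95% interval -0.07 to 0.14; limma adjusted p = 0.6). PGM2 lies on chromosome 4 among genes with a median of -0.37, and its fall was -0.39 with that subtracted, when PGM1 minus PGM2 became -0.26 (limma adjusted p = 0.0022). PYGL, the liver-type glycogen phosphorylase, which releases glucose from the polymer, rose from 10.54, 10.56 and 10.58 to 10.97, 11.06 and 11.02 (0.46 ± 0.04; limma adjusted p = 9.68e-05), beside a neighbourhood median of -0.29 on chromosome 14. With that subtracted the rise of PYGL was 0.75. PYGB, the brain-type enzyme, read 11.34, 11.36 and 11.44 against 11.46, 11.53 and 11.65 and missed the threshold (0.17, 0.03 to 0.31; limma adjusted p = 0.059). PYGB passed in 4 alternatives, among them quantile normalization (0.23, limma adjusted p = 0.0168) and the fit without colony replicate 1 (0.21, limma adjusted p = 0.0412), and stood at 0.03 with its neighbourhood median of 0.14 subtracted. The change of PYGB minus PYGL was -0.29 (95% interval -0.42 to -0.16; limma adjusted p = 0.0037), and -0.72 with the neighbourhood medians subtracted.

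Of 91 further genes of these pathways, 80 were measured. Among the 80, 15 rose and 21 fell (limma), 45.0% together beside 43.8% of all genes, with a median of -0.03. These genes are not matched to the members in expression, since 46 of the 80 lay above the median expression, where 68% of genes were called. Whether they differ from the members was not tested. Among 29 other genes of glycolysis and gluconeogenesis, 1 rose and 8 fell. PKM, the pyruvate kinase of the last glycolytic step, fell from 12.66 ± 0.02 to 11.83 ± 0.04 (mean ± SD, n = 3 arrays per group; limma adjusted p = 5.45e-06). Next came the pyruvate carboxylase gene PC (-0.66) and the ADP-dependent glucokinase gene ADPGK (-0.61), while GAPDHS, the sperm-type dehydrogenase, rose by 0.73. GAPDH itself did not pass (-0.11, limma adjusted p = 0.0645), at 13.60 ± 0.02 and 13.49 ± 0.01, near the top of the scale. It passed with only genes above the median expression (limma adjusted p = 0.0304), after quantile normalization (0.0368), with trend and robust settings (0.00142) and with the neighbourhood median subtracted (-0.27, limma adjusted p = 0.00107).

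Among 13 genes of pyruvate entry and monocarboxylate transport, 1 rose and 5 fell. Together that is 46.2%, beside 43.8% of all genes and 68% of those above the median expression. The pyruvate dehydrogenase complex genes DLAT (-0.56) and DLD (-0.51) fell, as did the phosphatase gene PDP1 (-0.40), whose product reverses the PDK kinases, and the carrier chaperone gene BSG (-0.30). The DLD difference was -0.15 and not called with its neighbourhood median of -0.37 subtracted (limma adjusted p = 0.0828). SLC16A4, a member of the monocarboxylate carrier family, rose by 0.59.

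H6PD, the dehydrogenase that starts the pentose phosphate route inside the endoplasmic reticulum, rose from 7.58 ± 0.09 to 9.16 ± 0.04 (1.59 ± 0.06; limma adjusted p = 9.74e-07). Of the 10 further pentose phosphate genes measured, 2 rose and 2 fell, 40% together beside 43.8% of all genes. The others called were the ribokinase gene RBKS (0.52), the phosphoribosyl pyrophosphate synthetase gene PRPS1 (-0.51) and the epimerase gene RPE (-0.24). RBKS lay below the array medians in both groups. RPE was at -0.09 and not called with its neighbourhood median of -0.16 subtracted (limma adjusted p = 0.28).

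Among 19 further glycogen genes, 7 rose and 4 fell. Together that is 57.9%, between the 43.8% of all genes and the 68% of those above the median expression. The primer gene GYG2 (0.67) rose. Phosphorylase kinase subunit genes were split, with PHKB (-0.28) lower and PHKA2 (0.45) and PHKA1 (0.14) higher, while PHKG1 (-0.13) and PHKG2 (0.13) did not pass. GYG2 and these subunit genes were named after their values were seen. GBE1, the branching enzyme, had the largest difference of all the pathway genes measured here, from 10.32 ± 0.02 to 7.48 ± 0.05 (-2.83 ± 0.05; limma adjusted p = 6.52e-08). It lies on chromosome 3 among genes with a median of -0.91, and the fall was -1.92 with that subtracted. GYG1, which primes the polymer, fell by 0.94 ± 0.07, and by 0.63 with its neighbourhood median of -0.30 subtracted, and the phosphatase targeting subunit gene PPP1R3B fell by 0.83 ± 0.08. GAA, the lysosomal enzyme that digests glycogen, rose from 8.04 ± 0.23 to 9.41 ± 0.08 (1.37 ± 0.11; limma adjusted p = 4.28e-05), beside a neighbourhood median of 0.41.

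Among 9 regulators of glucose use, 4 rose and 2 fell. Together that is 66.7%, beside 68% of genes above the median expression, where 8 of the 9 lie. EPAS1, the hypoxia-inducible factor subunit HIF-2 alpha, rose by 1.64 ± 0.05 (limma adjusted p = 3.34e-07), and MXI1, a MAX partner that opposes MYC, by 0.63 ± 0.05, or 0.36 with its neighbourhood median of 0.27 subtracted. HIF1A, the HIF-1 alpha subunit, fell by 0.59 ± 0.07, and by 0.26 with its neighbourhood median of -0.33 subtracted. Glucose-responsive genes split, with the thioredoxin-binding arrestin gene TXNIP at 0.40 and its relative ARRDC4 at -0.49, both past the test. MYC did not pass (0.02 ± 0.05, limma adjusted p = 0.829).

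**Figure D4:**
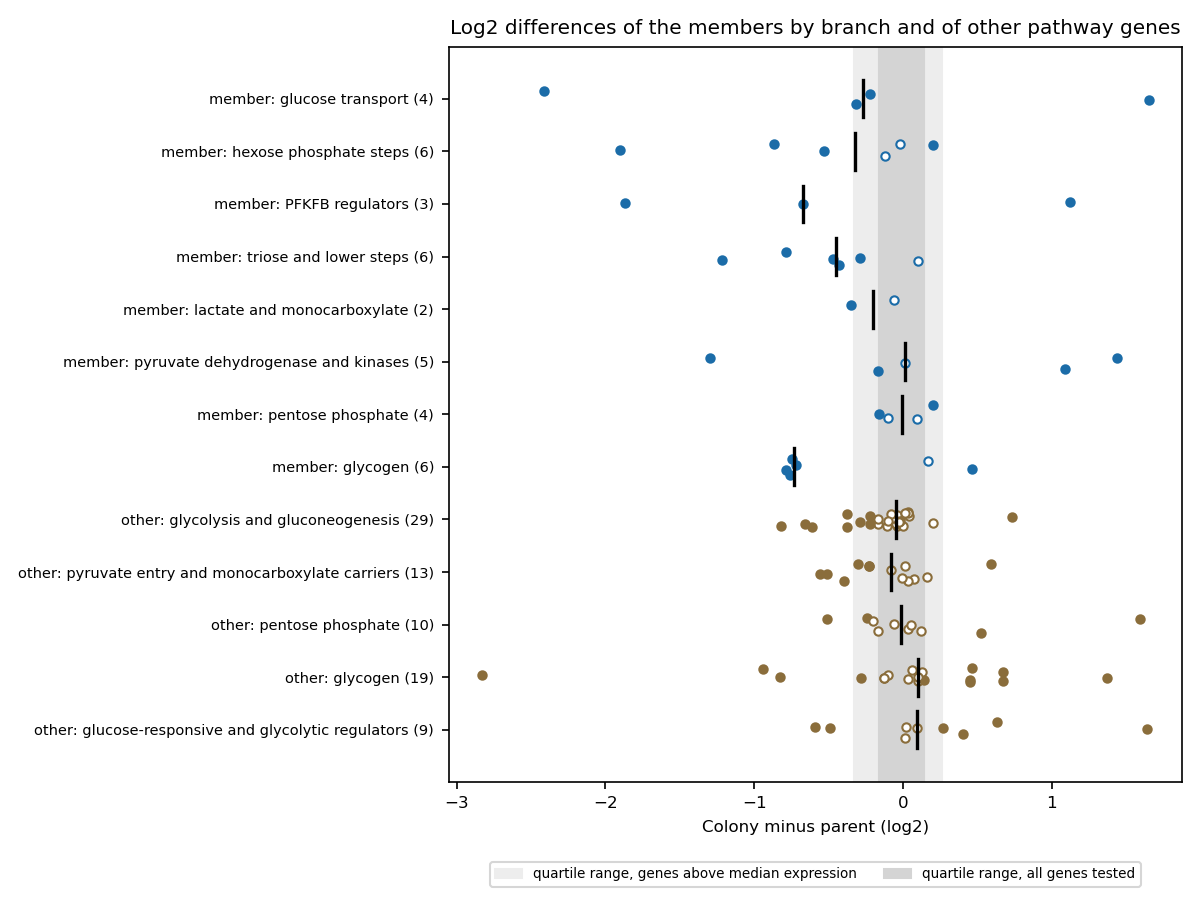
Colony-minus-parent log2 difference of each member (blue) and each further pathway gene (brown), by branch, with the number measured in parentheses and the branch median as a black line; filled points passed limma, open points did not, and the grey bands run from the lower to the upper quartile of all tested genes and of those above the median expression. Branch medians run from -0.74 for glycogen members and -0.67 for PFKFB genes to 0.00 for pentose phosphate members and 0.01 for pyruvate dehydrogenase and its kinases, while those of the further lists lie between -0.08 and 0.10.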

How the data were processed

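RNA of the 3 parent and 3 colony samples was measured on 1-colour Affymetrix whole-transcript arrays, after biotin labelling per the labels' protocols. The deposited log2 values, 1 per probe set and array, come from Affymetrix Expression Console per the submitters' processing notes. For its version, background correction and normalization, the sources used here give nothing. With arrays there is no sequencing depth, and their number sets the precision. No batch is given, so batch and group cannot be told apart if they coincide.

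Of 33297 probe sets, 19460 had 1 gene symbol in the platform annotation, 1754 several and 12083 none. Only those with 1 were used, with the highest-mean probe set per gene, and no filter on dim genes. TPI1 was the only member with more than 1 probe set. Groups were compared by limma (lmFit, eBayes, 2-sided) over all 18417 genes with Benjamini-Hochberg adjustment and a threshold of 0.05. Paralog pairs entered as per-array differences added to the same table. Intervals are 95%. Neighbourhoods are up to 25 expressed genes on each side in the gene order of GRCh38.p14, with fewer near chromosome ends, such as 31 in all for PFKP.

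Members, lists, pairs and the neighbourhood setting were chosen with earlier results of these data known. All members are named, as are up to 4 genes past the test from each further list by size of change, plus GAPDH, PKM, TXNIP, MYC, HIF1A and BSG. GYG2, PGAM1, PGAM2 and the phosphorylase kinase subunit genes were added after the values were seen. Alternatives covered array scaling, dim genes, probe sets, the variance model, the replicate number as a block, each array left out and the neighbourhood. The comparison of all 18417 genes was tested on simulated data with known changes in 50 genes. Of these, 82% were recovered at a log2 change of 0.5 and 100% at 1, each time with 8 false calls beside the 50 changed genes. No change smaller than 0.5 was simulated. On the real arrays 43.8% of genes were called, so these rates need not carry over to the calls above. Work used R 4.3.3, limma 3.58.1, Python 3.11.15, pandas 2.3.3 and matplotlib 3.10.9.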

Additional observations from a re-analysis of the deposited data

How the results depend on the processing

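Under 14 alternative settings the counts of called genes, members, further pathway genes and paralog pairs all stayed within 1.5 times the main count. Members called lower numbered 19 to 23 and higher 6 to 10. Values for single genes were kept in 13 of the settings, and in 12 for SLC2A12, which lies below the median expression. Under all of those, 24 of the 28 called members kept direction and call, and the others were PFKL, PDHA1, PGD and TALDO1. The neighbourhood setting changed the sign of PFKL (-0.12), ALDOC (-0.08), MYC (-0.02), PFKL minus PFKM (-0.12), PDK2 minus PDK3 (-0.10) and PGM1 minus PGM2 (-0.26). Genes near 0 changed sign elsewhere. PDK4 was at -0.02 with arrays at a common median, -0.01 after quantile normalization, and from -0.01 to 0.05 with single arrays left out. HK1 was at 0.00 after quantile normalization and from -0.04 to 0.01 with single arrays left out. MYC was at -0.01 with arrays at a common median and from -0.01 to 0.04 with single arrays left out. The causes were not tested. Deviations of same-numbered arrays correlated at -0.089, -0.059 and -0.01, and no parent array correlated best with the colony array of its own number. These values gave no sign that replicate numbers pair the samples, but 3 arrays per group cannot settle it. With the replicate number as a block, 19 members were lower and 7 higher, 14 further pathway genes were higher and 21 lower, 18 pairs were called, and 3633 genes were higher and 3931 lower. PDHA1 (limma adjusted p = 0.0573) and PGD (0.0574) were not called in that fit. Signal near background limits SLC2A12 in parent cells, and PDK4 and RBKS in both groups.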
